A study of Mus musculus with 18 samples.

Results

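In splenic leukocytes of mice with the Dnmt3a R878H mutation, methylation was lower than in wild-type cells at most of the regions tabulated, and a small set had almost no methylation to lose. Those regions are described here. In each of the 2 deposited tables of methylation segments, 1 for CD11b+ myeloid cells and 1 for CD4+ T cells, the autosomal regions were taken whose wild-type (WT) group mean was below 10% methylation and whose group means differed by less than 3 percentage points between the genotypes. They numbered 4330 of 407396 autosomal regions (1.06%) in CD11b+ cells and 5100 of 547975 (0.931%) in CD4+ cells, and they are called the stably unmethylated regions below. The tables held 411770 and 553467 regions in all, the sex chromosomes and other sequences included. Both the WT mean and the difference chose the regions, so their own levels are given as a description.

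The cells came from spleens of Dnmt3a+/+ (WT) mice and of heterozygous mice whose Dnmt3a fl-R878H allele was recombined by Vav1-iCre, a Cre driven by a promoter active in all blood cells from the stem cell on; the labels write the mutant genotype as Dnmt3aR878/+, and the mice are called R878H below. Whole-genome bisulfite sequencing was done on 4 WT and 4 R878H mice per cell type, with 6 deposited entries for the 4 R878H CD11b+ mice because mice 3 and 4 were entered more than once. All groups were on the C57BL/6 background, no group was treated, and the labels give neither age nor the controls' Cre status. Cells were isolated on magnetic columns by CD11b or CD4, so they are enriched populations and not single cell types, and the Cre in use acts in both.

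DNMT3A is one of the enzymes that place methyl groups on the cytosine of CG dinucleotides (CpGs). R878H is the mouse form of the human R882H mutation, the commonest DNMT3A mutation of clonal hematopoiesis, and lowers the enzyme's activity. In mammals most CpGs are methylated, and the exceptions are CpG islands, which are short stretches rich in G, C and CpG at many gene starts, and active enhancers. Histone H3 methylated at lysine 4 blocks the DNMT3 enzymes at active starts, CXXC-domain proteins such as KDM2B and CXXC1 bind unmethylated CpGs there, and the TET enzymes oxidize methyl groups that are placed.

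Each table gives 1 mean per genotype and no value per mouse, read depth or error, so no test across mice could be made here and none is given. The authors' own p-values per region were not used. In regions of exactly 10 cytosines, 100% of the WT and R878H means were whole multiples of 0.025 percentage points (within 0.01 of a step), the step that 4 libraries of equal weight with whole-percent values at each cytosine would give. On that reading a group mean bounds every mouse: a single mouse cannot exceed 4 times its group mean. The files have no header, and the column read as WT is the one that is higher across the genome, as WT cells are in the study's profiles, so every direction given here rests on that reading. Of the 10 myeloid marker genes looked up, 7 had listed regions within 1 kb of a start in both tables, and the WT mean over them was lower in CD11b+ cells for 7 of those 7. Of the 10 T cell markers, 7 had regions in both tables and 5 were lower in CD4+ cells. The gap ran from Tcf7 (15% against 15.3%) to Cd28 (62.8% against 83.3%). Cd4 (92.25% against 77.9% in CD11b+ cells) and Cd6 (92% against 85.1%) were the exceptions. Each table lists its own regions, so a gene's means can cover different DNA, as at Cd4 with 1 CD4+ and 3 CD11b+ regions. B cell genes were lower in CD11b+ cells at 4 of 5, the gap being widest at Ms4a1 (53.9% against 96.4%), and at the erythroid genes 1 of 3 was lower there. The part of other spleen cells in these means was not tested.

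Sequences make plain what kind of DNA these regions are, and the ones below were read from GRCm38 (mm10), forward strand, with every CG in capitals. Printing was limited to regions of at most 300 bp that overlap no annotated exon, on all but 1 of the autosomes. The densest of these are shown first. In CD11b+ cells the densest promoter region among them lay 228 bp from a start of Rtn2, a reticulon of the endoplasmic reticulum, at chr7:19290828-19290841, and averaged 6.55% in WT and 3.61% in R878H cells. The densest more than 1 kb from a start of any gene lay in an intron of Dach1, a transcriptional cofactor of development, at chr14:98167691-98167754, with 0.5% and 1.42%. The regions of Prrx1, which overlaps an exon of the full annotation, and Arap3, on the autosome left out, are denser. In CD4+ cells their counterparts lay 622 bp from a start of the histone gene Hist3h2ba at chr11:58948283-58948298, with 1.62% and 2.02%, and 1220 bp from Cyp26a1, which degrades retinoic acid, at chr19:37696569-37696578, with 0.6% and 2.05%. The denser promoter region of Adrb1 overlaps an exon, and regions of Fam102b and Rad18 equal the Cyp26a1 region in density.
Rtn2: CGCGCGCGccCGCG
Dach1: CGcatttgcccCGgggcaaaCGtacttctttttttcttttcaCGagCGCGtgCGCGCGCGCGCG
Hist3h2ba: CGtgagCGCGCGCGCG
Cyp26a1: gCGCGCGCGc

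Most of the regions were much less dense than that. Shown next, chosen after the values were seen because their CpG density is nearest the median of the set, are a promoter region of CD11b+ cells near BC034090 (chr1:155224205-155224401, 8 CG dinucleotides in 197 bp, 1.6% in WT and 2.55% in R878H) and an intergenic region of CD4+ cells 8856 bp from Gbx2, a homeobox gene (chr1:89940035-89940259, 9 CG dinucleotides in 225 bp, 3.2% and 5.62%). The capitals are scattered through ordinary sequence in both.
BC034090: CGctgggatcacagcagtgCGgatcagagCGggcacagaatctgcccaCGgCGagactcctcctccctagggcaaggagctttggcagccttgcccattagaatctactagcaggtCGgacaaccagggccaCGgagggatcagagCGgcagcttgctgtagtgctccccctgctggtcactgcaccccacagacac
Gbx2: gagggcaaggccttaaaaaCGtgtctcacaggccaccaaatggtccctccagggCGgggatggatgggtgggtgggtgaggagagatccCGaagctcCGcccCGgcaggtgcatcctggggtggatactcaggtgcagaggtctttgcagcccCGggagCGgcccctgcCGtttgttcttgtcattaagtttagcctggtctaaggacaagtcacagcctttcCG

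For contrast, 3 regions outside the set are printed. The first had the largest gain among printable CD11b+ regions that were unmethylated in WT: it lies 273 bp from a start of H3f3a, which encodes histone H3.3 (chr1:180812997-180813261), holds 23 CG dinucleotides, and rose from 0.988% to 43.9%. The CD4+ counterpart, intergenic and 157185 bp from Cryba4 (chr5:112093847-112093977), holds 6 and rose from 5.4% to 26.4%. The last is the methylated region nearest to a stably unmethylated one, 15 bp away, intergenic near Ppp1r3g (chr13:35947101-35947342), and fell from 94.2% to 84.5%. Its density of 4.34 CG per 100 bp is close to the median of the stably unmethylated regions.
H3f3a: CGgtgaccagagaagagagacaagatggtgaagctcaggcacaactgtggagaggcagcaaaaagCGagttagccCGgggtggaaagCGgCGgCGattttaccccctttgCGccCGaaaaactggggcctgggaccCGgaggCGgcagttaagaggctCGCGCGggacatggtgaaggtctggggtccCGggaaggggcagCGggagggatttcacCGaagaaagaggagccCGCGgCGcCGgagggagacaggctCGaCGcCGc
Cryba4: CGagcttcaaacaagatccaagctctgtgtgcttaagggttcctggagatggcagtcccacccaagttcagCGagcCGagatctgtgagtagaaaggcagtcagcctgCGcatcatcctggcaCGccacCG
Ppp1r3g: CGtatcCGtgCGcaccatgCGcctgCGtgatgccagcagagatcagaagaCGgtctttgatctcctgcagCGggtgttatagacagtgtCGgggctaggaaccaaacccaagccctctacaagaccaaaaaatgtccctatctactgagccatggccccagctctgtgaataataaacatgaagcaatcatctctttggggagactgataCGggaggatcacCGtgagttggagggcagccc

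Methylation was close to the floor in both genotypes. In CD11b+ cells the median of the stably unmethylated regions was 2.57% in WT (quartiles 1.12% and 4.38%) and 1.95% in R878H (0.939% and 3.59%). In CD4+ cells it was 2.8% (1.35% and 4.68%) and 2.17% (1.07% and 3.98%). Means of exactly 0 occurred for WT in 3.65% and for R878H in 3.49% of the CD11b+ regions, and in 2.33% and 1.57% of the CD4+ regions. The 4-mouse bound puts every mouse below 10% methylation in 1811 CD11b+ regions (41.8%) and 1953 CD4+ regions (38.3%), and below 20% in 78.1% and 74.3%.

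Within the 3-point band that the rule allows, the means leaned toward loss. The median of WT minus R878H was 0.525 points in both cell types, with R878H lower in 2810 CD11b+ regions (64.9%) and 3266 CD4+ regions (64%). Over all autosomal regions listed, R878H was lower in 93.5% and 95.5% and the median loss was 6.53 and 6.83 points. The shares are not comparable as they stand, because a region with a WT mean below 3% cannot lose 3 points and could leave the set only by a gain.

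The limits cut a continuous range. Just inside the WT limit lay regions near Wnt3a, Ifnb1 and Opn4 in CD11b+ cells, at 9.975%, 9.975% and 9.96%, and near Agbl1, Zfp24 and Zcchc14 in CD4+ cells, at 9.98%, 9.975% and 9.96%. Just outside it lay Chd7, Hsd17b2 and Trpm3 at 10%, 10% and 10.02%, and Prss23, Neurog1 and Tfb1m at 10%, 10.03% and 10.03%. Just inside the limit on change lay Padi2, Slamf6 and Ptprb with losses of 2.99, 2.98 and 2.98 points, and Ucn, Gm10277 and Rara with 2.98 points each. Plcl1, Xbp1, Adam11, Il18r1, En1 and Slc41a2 stood at 3 points and were left out.

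The share of listed unmethylated regions that stayed so was lower in CD11b+ than in CD4+ cells, most of all at the lowest WT levels. Of the CD11b+ regions with a WT mean below 10%, 4330 of 8404 (51.5%) were stable, 2355 gained 3 points or more (0.578% of all listed) and 1719 lost 3 points or more (0.422%). In CD4+ cells 5100 of 7847 (65%) were stable, 662 gained (0.121% of all listed) and 2085 lost (0.38%). Among regions with a WT mean below 1%, 964 of 2337 (41.2%) were stable in CD11b+ cells and 908 of 952 (95.4%) in CD4+ cells, the rest having gained. At a WT mean of 9% to 10%, 16% and 21.9% were stable, and most of the others had lost methylation (78.5% and 72%). These shares depend on which regions each cell type has listed. Of protein-coding starts with 60 or more CG dinucleotides in the surrounding 1 kb, 21.4% (CD11b+) and 13.3% (CD4+) had a listed region with a WT mean below 10%. A stable one was found at 10.8% and 10.7%, nearly the same share.

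**Figure D1:**
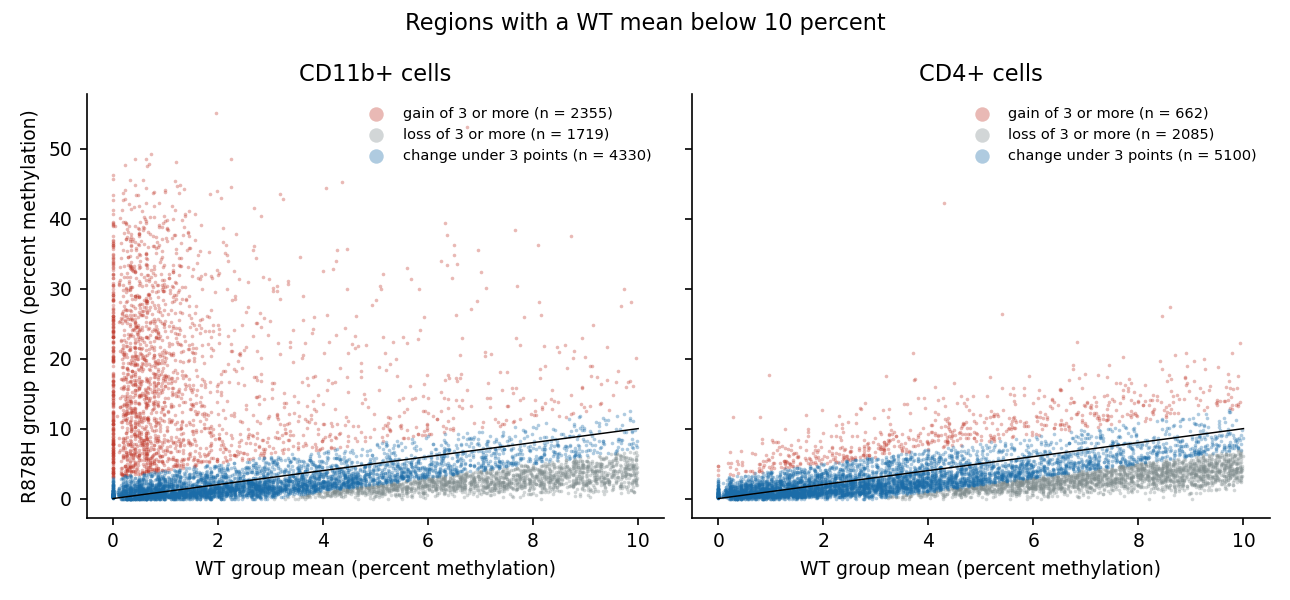
WT group mean (x axis) against R878H group mean (y axis), both in percent methylation, for every autosomal region with a WT mean below 10%, 1 point per region, with the line of equality. In CD11b+ cells 2355 regions lie 3 points or more above the line, most at WT means below 2%, and in CD4+ cells 662 do.

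The gains in CD11b+ cells were large where they occurred. Their median rose from 0.786% to 15.6%, with 781 regions up by 20 points or more, against 4.4% to 9.92% and 2 such regions in CD4+ cells. In 580 of the CD11b+ gains the R878H mean exceeded 25%, which on the 4-mouse reading takes methylation in more than 1 mouse. It exceeded 50% in only 2 of the 2355, so on that reading methylation in 2 mice would suffice for nearly all gains. Whether all 4 mice shared a gain was not tested, since the tables hold no value per mouse.

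CpG density set the stably unmethylated regions apart from the rest of the tables, on a measure the rule did not use. They held a median of 4.31 CG dinucleotides per 100 bp in CD11b+ cells (quartiles 2.92 and 6.63) and 4.22 in CD4+ cells (2.84 and 6.59), against 1.58 and 1.5 over all listed regions. Counting only the CpG cytosines that entered the means, halved, gave 2.23 and 2.45 per 100 bp against 1.12 and 1.16. Their GC content was 54.6% and 54.5% against 46.2% and 45.8%. In the 1 kb around their centres lay a median of 37 and 36 CG dinucleotides, against 13 and 12. They were also short, with medians of 246 and 224 bp against 504 and 497 bp, as a segment of 10 cytosines is short where CpGs are dense, and soft-masked repeats filled a median of 3.85% and 0.663% of their length against 12.7% and 13.1%.

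Most regions of the set nevertheless fell short of a classical island. This describes listed regions only. Of starts with 60 or more CG dinucleotides in the surrounding 1 kb, 32.2% had a listed CD11b+ region and 27.8% a CD4+ one. With an island taken as a central 200 bp of more than 50% GC and an observed to expected CG ratio above 0.6, 1500 CD11b+ regions (34.6%) and 1720 CD4+ regions (33.7%) met the criteria, against 3.13% and 2.43% of all listed regions. Of the regions that gained methylation from a WT mean below 10%, 79.2% met them in CD11b+ cells and 57.7% in CD4+ cells, and their density was 9.62 and 6.92 CG per 100 bp. Those that lost 3 points or more sat below the stable ones in both tables. Fully methylated regions (WT of 90% or more) that also changed by less than 3 points were far more numerous, at 42763 and 56184, and close to the background in density.

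**Figure D2:**
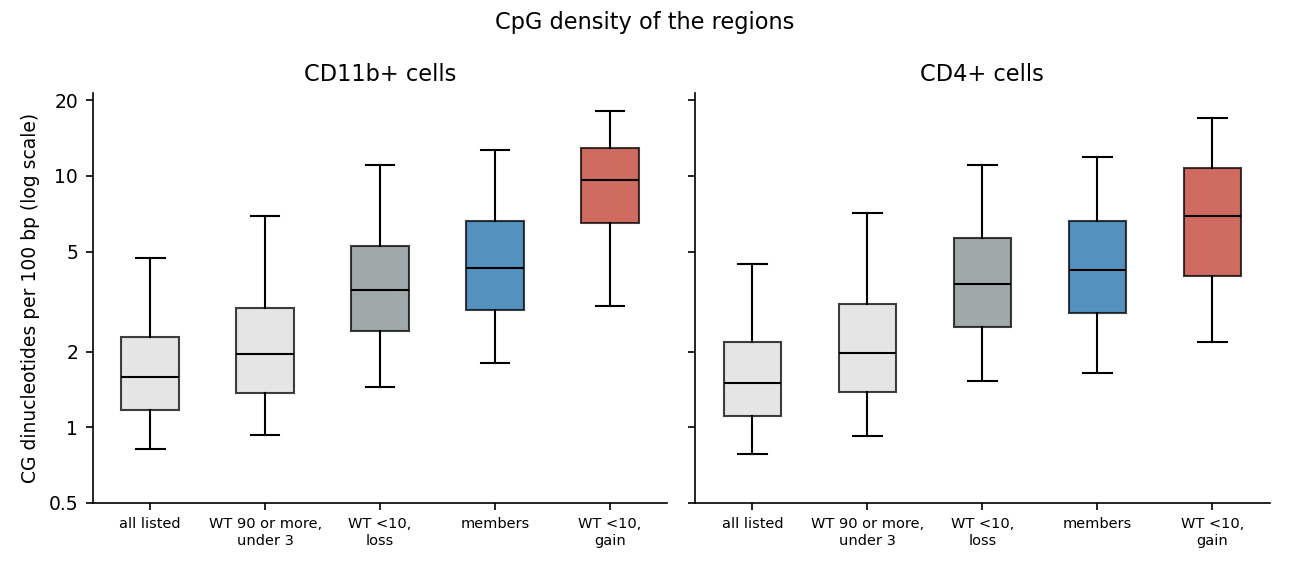
CG dinucleotides per 100 bp (log axis) of listed autosomal regions in each cell type, grouped by WT mean and change; boxes show quartiles and median, whiskers the 5th and 95th percentiles. The stably unmethylated regions (blue; medians 4.31 and 4.22) lie above all listed regions (1.58 and 1.5) and below the regions that gained methylation (9.62 and 6.92).

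Among listed unmethylated regions of like CpG content, the cell types differed most at the dense end. With 20 or more CG dinucleotides in the central 200 bp, 352 of 1355 CD11b+ regions (26%) were stable and 961 (70.9%) gained 3 points or more, while in CD4+ cells 326 of 541 (60.3%) were stable and 143 (26.4%) gained. With 5 to 9, 62.3% and 65.6% were stable and 11% and 5.82% gained. Losses ran the other way, from 34.6% and 33.5% of regions with fewer than 5 CG dinucleotides to 3.1% and 13.3% of those with 20 or more. All regions of a group come from the same 4 mice and are not independent observations of the genotype.

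**Figure D3:**
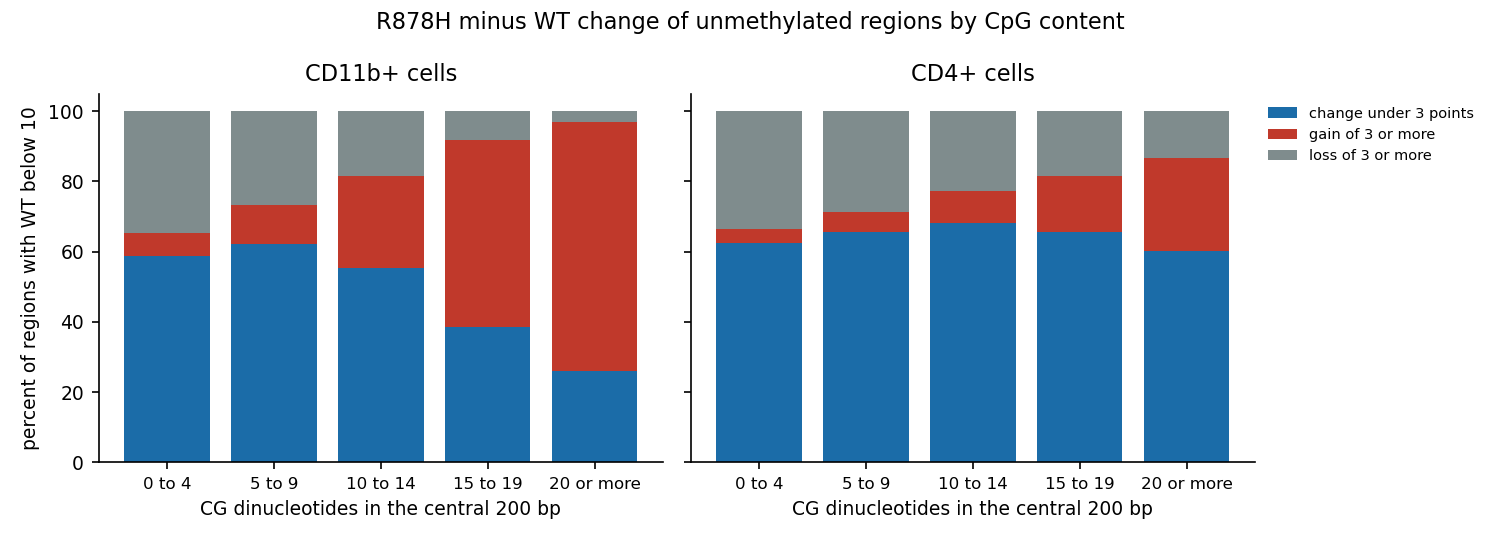
Share of autosomal regions with a WT mean below 10% (y axis, percent) that changed by less than 3 points, gained 3 points or more or lost 3 points or more in R878H cells, by the number of CG dinucleotides in the central 200 bp (x axis). The stable share falls to 26% at 20 or more in CD11b+ cells and stays at 60.3% in CD4+ cells.

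Short motifs were counted on both strands of the central 200 bp of each region. The GC box GGGCGG, bound by SP1-type factors at many island promoters, was in 21.1% of the stably unmethylated regions of CD11b+ cells and 19.9% of those of CD4+ cells, against 4.03% and 3.61% of all listed regions. The ETS core CCGGAA, the letters at the heart of sites for PU.1 relatives and other ETS factors, was in 8.59% and 9.37%, against 3.1% and 2.86%. Neither was particular to the stable regions. From a WT mean below 10%, regions that gained held GGGCGG in 33.6% and 26% and CCGGAA in 9.89% and 8.16%. Those that lost 3 points or more held GGGCGG in 12.8% and 14.9% and CCGGAA in 6.69% and 6.52%. NRF1 (GCGCATGC) and CRE (TGACGTCA) letters were rare throughout, in 1.13% and 0.6% of the CD11b+ set. By contrast CCAAT was less common than in the tables at large (18.9% and 19.3% against 23.8% and 24.3%), as were TATAAA (5.8% and 6.43% against 13% and 13.5%) and AAGATGG, the core read by YY1 (2.4% and 2.49% against 4.51% and 4.57%). The E-box CACGTG was in 5.77% and 5.43%, against 4.17% and 4.03%. In 300-bp RefSeq promoters of all 32851 entries, GGGCGG was in 35.7% and CCGGAA in 14.9%. Motifs that hold a CG follow base composition, and their share was not corrected for it.

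Promoters held most of the set. Within 1 kb of a transcript start of a protein-coding gene (GENCODE M21) lay 2349 CD11b+ regions, or 54.2% (95% Wilson interval 52.8% to 55.7%), and 2663 CD4+ regions, or 52.2% (50.8% to 53.6%), against 9.3% and 8.28% of all listed regions. The intervals cover counting error only. Of the rest, 1169 and 1409 (27% and 27.6%) were intergenic, 568 and 723 (13.1% and 14.2%) intronic and 244 and 305 (5.63% and 5.98%) in exons. Gained regions were at promoters more often still in CD11b+ cells (82.5%) and about as often in CD4+ cells (54.5%). Regions with a WT mean below 10% that lost 3 points or more were also rich in promoters (39.8% and 44.1%). So were regions with a WT mean of 10% to 20% (28.9% and 30.1%), so promoter location was not particular to the stable regions.

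At like CpG content the set still lay in promoters more often. Among regions with 5 to 9 CG dinucleotides in the central 200 bp, 48.2% of the stably unmethylated CD11b+ regions and 47.3% of the CD4+ ones lay in promoters, against 11.6% and 11.3% of the other regions in that range. At 20 or more the figures were 76.7% and 74.8%, against 69% and 42.5%. The other regions were mostly methylated at 5 to 9, with median WT means of 89.75% and 91.1%. At 20 or more their medians were 1.13% and 29%, so the comparison is not of like regions between the cell types. At the start itself, 607 and 609 regions of the set (14% and 11.9%) overlapped a start, against 1.94% and 1.64% of all listed regions. The centres of its promoter regions lay at a median of 75 and 82 bp downstream, with 57.9% and 58% on the downstream side. That was close to all listed promoter regions, with medians of 52 and 36 bp and 53.2% and 52% downstream.

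Away from promoters the regions were less dense and somewhat more methylated. The 1981 CD11b+ and 2437 CD4+ regions there had medians of 3.59 and 3.58 CG per 100 bp, against 5.04 and 4.94 in promoters. Their median methylation was 3.3% and 3.54% in WT and 2.39% and 2.77% in R878H cells, against 1.86% and 2.2% in WT and 1.57% and 1.69% in R878H cells for the regions in promoters. Their median distance to the nearest protein-coding start was 12425 and 12206 bp, and 221 and 265 of them were within 1 kb of the start of another kind of gene. On chromosomes the set made up from 0.823% (chromosome 14) to 1.35% (chromosome 7) of listed CD11b+ regions and from 0.73% (chromosome 14) to 1.24% (chromosome 19) of CD4+ regions. On chromosome X, which the rule leaves out, 5 regions in each table met the same thresholds.

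The tables show only a part of the unmethylated genome. Of 26347 protein-coding transcript starts with 60 or more CG dinucleotides within the surrounding 1 kb, 32.2% had any listed CD11b+ region and 27.8% any CD4+ region in that 1 kb, and 10.8% and 10.7% had a stably unmethylated one. Unlisted starts were not analysed here. In the listed regions of the set a median of 56.8% and 66.7% of the CpG cytosines of the reference entered the mean, against 75% and 81.2% over all regions, and 70.4% and 71.3% of the set rested on the minimum of 10 cytosines.

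The longest tracts were unmethylated over many cytosines. In CD11b+ cells the 5 regions with the most CpG cytosines were nearest Btbd11 (chr10:85388195-85389278, 54 cytosines, 5.94% in WT and 5.83% in R878H), the condensin gene Ncapg2 (chr12:116405023-116406585, 48, 5.93% and 6.07%), the adhesion receptor gene Adgrl1 (40, 1.69% and 1.56%), Abt1, an activator of basal transcription (39, 2.62% and 2.52%), and Nin, for the centrosomal protein ninein (38, 8.7% and 8.89%). In CD4+ cells they were Abcd2, a peroxisomal fatty acid transporter (chr15:91191334-91192641, 45 cytosines, 5.83% and 6.16%), Cryzl1 (42, 1.02% and 0.911%), Pfkm, muscle phosphofructokinase (39, 1.58% and 1.48%), Pmaip1, the death-promoting NOXA (39, 0.724% and 1.04%), and the deubiquitinase gene Usp15 (38, 0.888% and 1.1%). At each of these 10 the genotypes differed by less than 1 point. The region nearest Abt1 lay 11090 bp from its start and that nearest Adgrl1 24210 bp, while the others named here were within 2 kb of a start.

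The densest regions had WT means from 0.6% to 9.73%. In CD11b+ cells, beside the Rtn2 region printed above, they included an intronic region of Prrx1, a mesenchymal homeobox gene (2.9% and 0.575%), and regions near Arap3 (7.56% and 5.02%), Ice2 (0.625% and 0%) and Arrdc2 (0.808% and 1.5%). In CD4+ cells, beside Cyp26a1 and Hist3h2ba, they included Fam102b (1.75% and 4.33%), Rad18, a DNA repair ligase (9.73% and 12.6%), and Adrb1, a beta adrenergic receptor (4% and 2.92%). All 10 were between 10 and 38 bp long, so each describes a single run of CpGs.

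Genes with a promoter region in the set were counted over every annotated start. They numbered 2415 of 20780 autosomal protein-coding genes (11.6%) in CD11b+ cells and 2730 (13.1%) in CD4+ cells, 772 of them in both. Listed regions of any kind were near starts of 14349 and 15434 genes. The most regions per gene, summed over both tables, were at Zic4, Ablim1 and Agap1, with 6, 5 and 5. Ank2 had 5, all in CD11b+ cells, and Emx1 and Robo2 had 5 each. At Zic4, a zinc finger gene of hindbrain development, the 4 CD11b+ regions ranged from 4.19% to 6.38% in WT and the 2 CD4+ regions stood at 1.15% and 8%.

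Developmental regulators were the list with the largest share in CD4+ cells. Of 182 homeobox, SOX, PAX, TBX, GATA, FOX, WNT and BMP genes, most of which direct embryonic patterning, 44 (24.2%) had a stably unmethylated promoter region in CD11b+ cells and 58 (31.9%) in CD4+ cells, 22 in both. At Emx1, a forebrain homeobox gene, the CD11b+ region chr6:85187440-85187554 was at 0.9% in WT and 2.25% in R878H, and the CD4+ region that starts at the same base was at 2.95% and 0.85%. Pax6, the eye regulator, had 1.6% and 3.48% in CD11b+ cells (chr2:105668818-105668890) and 1.2% and 2.52% in CD4+ cells. Otx2 had 2.11% and 3.14% (chr14:48664662-48664949), and 2.38% and 3.58%. Hoxa10, which blood progenitors use, had a 24-cytosine CD4+ region at 3.77% and 3.64% and a CD11b+ region at 2.35% and 3.8%. Unmethylated promoter regions of this list also lost 3 points or more, at 36 genes in CD11b+ and 42 in CD4+ cells, and gained at 9 and 10, Sox2 and Irx2 gaining in both. Losses were thus at 19.8% and 23.1% of the list, against 3.24% and 4.41% of all autosomal protein-coding genes, and gains at 4.95% and 5.49%, against 8.09% and 1.51%.

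Housekeeping lists lay nearer the background. Of 71 cytosolic ribosomal protein genes, 11 (15.5%) and 14 (19.7%) had one. Rpl13a was unmethylated over 37 cytosines in CD11b+ cells (0.507% in WT and 0.635% in R878H), Rps19, the gene mutated in Diamond-Blackfan anemia, was at 0.118% and 0.397% in CD4+ cells, Rpl3 at 2.33% and 0.5% in CD11b+ and 2.54% and 0.729% in CD4+ cells, and Rpl37a at 1.35% and 1.23% in CD4+ cells. Promoter segments of 11 genes of that list gained 3 points or more in CD11b+ cells and of 1, Rps9, in CD4+ cells, or 15.5% and 1.41% of the list against 8.09% and 1.51% of all genes. Of 78 mitochondrial ribosomal protein genes 7 (8.97%) and 14 (17.9%) had one, such as Mrpl43 (0.375% and 0.15% in CD11b+ cells) and Mrps6 (1.85% and 0.75%). Mrps30 stood at 2.03% and 4.22% in CD11b+ cells, and Mrpl48 at 1.7% and 0.275% in CD4+ cells. Other promoter segments of these genes gained in CD11b+ cells, the largest at Mrpl43 (0.25% to 21.75%), Mrps30 (1.5% to 20.9%) and Mrpl48 (0.35% to 19.8%). A segment of Mrps6 lost there (8.575% to 2.125%). In all, 8 genes of this list (10.3%) had a gain of 3 points or more in CD11b+ cells, against 8.09% of all genes, and 0 in CD4+ cells.

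Of 38 proteasome genes 8 (21.1%) in CD11b+ and 2 (5.26%) in CD4+ cells had a stably unmethylated promoter region. Psmb9, an immunoproteasome subunit, had 0.7% and 2.65% in CD11b+ cells and 0.602% and 0.5% over 22 cytosines in CD4+ cells. Regions of Psmb4, Psma7 and Psmc2 in the set had WT means from 0% to 0.654% in CD11b+ cells, and R878H means from 0.365% to 0.481%. Other promoter segments of Psmb4 (1.31% to 39.8%) and Psmc2 (0.646% to 8.48%) gained there. In all, 6 genes of this list (15.8%) had a gain of 3 points or more in CD11b+ cells, against 8.09% of all genes. The spliceosome list had 5 of 35 (14.3%) and 4 (11.4%), with Srsf2, which blood cancers mutate, at 0% and 0.219% in CD11b+ cells, Srsf3 at 0.25% and 0.0577% in CD4+ cells, Sf3b4 at 1.64% and 1.77% in CD11b+ cells, and Snrpd3 at 1% and 1.12% there and 3.02% and 5.73% in CD4+ cells. A neighbouring segment of Srsf2 gained in CD11b+ cells.

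The mTOR pathway, which senses growth factors and nutrients, had 10 of 39 genes (25.6%) in CD11b+ and 6 (15.4%) in CD4+ cells. The kinase gene Mtor stood at 0.35% and 0% in CD11b+ cells (chr4:148448818-148448960), its activator Rheb at 1% and 1.77%, and Lamtor4, part of its lysosomal anchor, at 0.672% and 1.25% in CD11b+ and 0.2% and 2.12% in CD4+ cells. Mlst8, a subunit of both mTOR complexes, stood at 0.325% and 0.5% in CD4+ cells. Promoter segments of Eif4ebp2, Nprl2, Pdpk1, Rptor and Rraga gained 3 points or more in CD11b+ cells, and Nprl2 lost in CD4+ cells.

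Genes of osteoclasts and inflammation that the study follows had 5 of 23 (21.7%) and 7 (30.4%). Acp5, the osteoclast acid phosphatase, was at 0.917% and 1.02% in CD11b+ cells (chr9:22131332-22131802) and at 0.6% and 0.75% in CD4+ cells. Mmp9, a matrix protease, had a 31-cytosine CD11b+ region at 7.01% and 6.82% and CD4+ regions at 1.98% and 2.65% in WT. Rela, an NF-kB subunit, was at 3.03% and 0.375% in CD11b+ and 1.45% and 1.1% in CD4+ cells, and Nfatc1, a master regulator of osteoclasts, was at 0.812% and 0.696% over 28 cytosines in CD4+ cells. Fos gained and Nrp1 lost in CD11b+ cells, and Tgfb1 and Tnfrsf11a (RANK) lost in CD4+ cells.

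Of 31 myeloid genes 2 (6.45%) and 3 (9.68%) had a stably unmethylated promoter region, shares within 2 genes of those over all genes: Cd14 (0.781% and 0.0938%) and Klf4 (1.3% and 0.95%) in CD11b+ cells, while Cebpd (0.825% and 2.28%) and Irf8 (4.95% and 2.1%) belonged to CD4+ cells. Segments of Cebpa, Cebpb, Cebpd, Id2, Cd14 and Klf4 gained in CD11b+ cells. Of 37 T cell genes 4 (10.8%) and 6 (16.2%) had one. Runx1 was at 1.1% and 0.75% over 25 cytosines in CD4+ cells, Ikzf1 at 0.225% and 2.2%, Gata3 at 4.67% and 4.56% there and at 0% and 0.275% in CD11b+ cells, and Lef1 at 0.325% and 1.2% in CD11b+ cells. In CD4+ cells Bcl11b, Gata3, Lat, Lck, Runx1 and Tcf7 had unmethylated segments that lost 3 points or more, and 7 genes of the list had segments that gained in CD11b+ cells.

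Of 22 CpG-binding proteins and island chromatin writers 2 (9.09%) had a region in each cell type, close to the share over all genes. Kdm2b stood at 1.35% and 1.93% in CD4+ cells, Hcfc2 at 2.69% and 0.417%, and in CD11b+ cells Kmt2d was at 1.02% and 0.25% and Fbxl19 at 0.481% and 1.19%. Cxxc5, Fbxl19, Kdm2a, Rbbp5 and Setd1b had segments that gained in CD11b+ cells. Of 14 methyltransferase and TET pathway genes none had one in CD11b+ cells and 2 had one in CD4+ cells, Dnmt1 (3.35% and 1.35%) and Gadd45a (2.38% and 1.46%), while Tet2 and Tet3 had segments that lost 3 points or more there. B cell and erythroid genes had 0 of 15 and 2, Pax5 and Epor, and germline genes, which somatic cells keep methylated, had 0 of 19 and 1, Dazl (3.85% and 2.88%). Lists this small give shares that move by several points per gene.

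**Figure D4:**
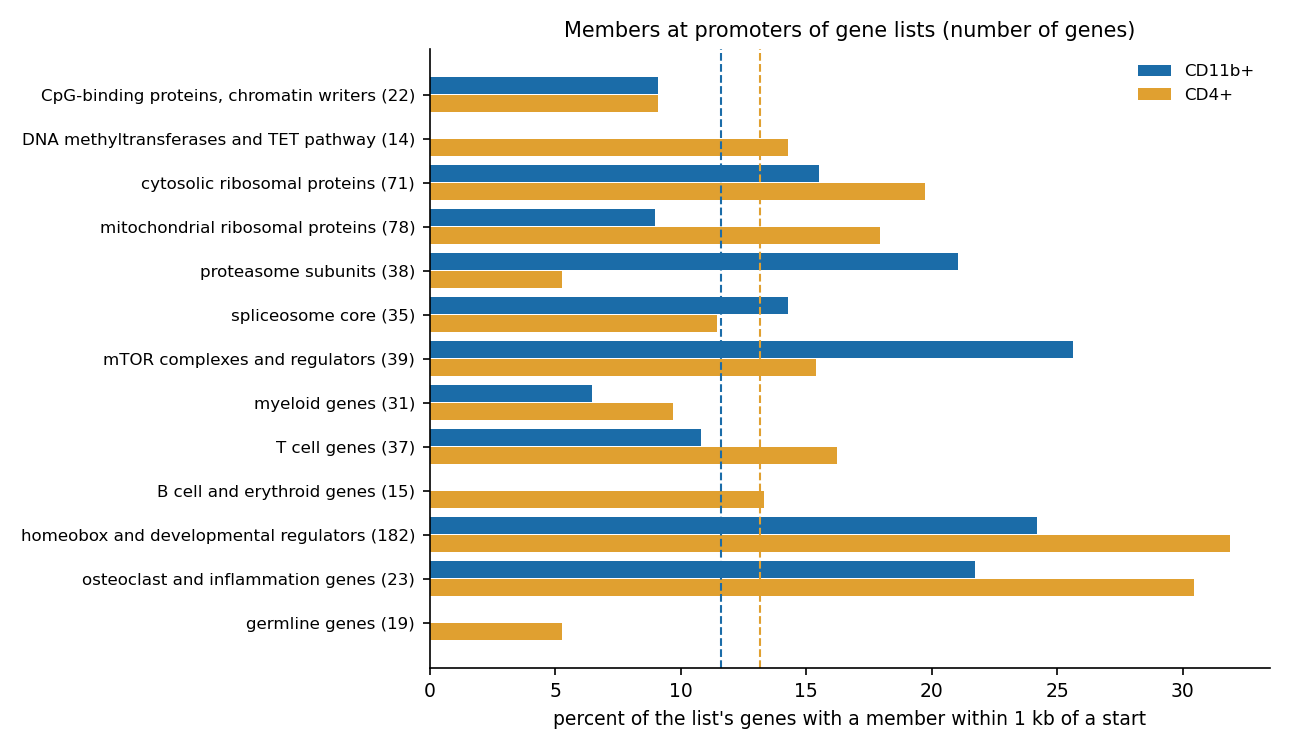
Percent of each list's autosomal protein-coding genes (x axis; number of genes in parentheses) with a stably unmethylated region within 1 kb of a start, in CD11b+ (blue) and CD4+ (amber) cells. Dashed lines mark all 20780 genes, at 11.6% and 13.1%; developmental regulators reach 24.2% and 31.9%.

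The other cell type's table, which the rule did not use for a given region, was read at the same DNA. Of the 4330 CD11b+ regions, 1988 (45.9%) overlapped a CD4+ region by at least 1 bp, and of the 5100 CD4+ regions 2070 (40.6%) overlapped a CD11b+ region. The overlapping CD4+ regions had a median of 7% in WT and 4.09% in R878H cells, and the CD11b+ ones 5.68% and 4%. Every overlapping region met the rule for 871 CD11b+ regions (43.8%) and 935 CD4+ regions (45.2%), against 0.931% and 1.06% of all listed regions. In all, 1057 CD11b+ regions (24.4% of the set) overlapped 1057 stably unmethylated CD4+ regions (20.7%), and 698 genes were nearest to promoter regions of both sets.

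How often both tables met the rule depended on the overlap asked for, since many pairs touched by a few bases. Pairs that shared 1 or 2 bp made up 11% and 9.72% of pairs, and 49.1% of the 234 CD4+ regions and 55.1% of the 156 CD11b+ regions with a WT mean of 50% or more touched by no more. With at least 50% of each region shared, 897 and 905 regions had a partner, and 586 of them met the rule in both tables (65.3% and 64.8%). The median of WT minus R878H in the partner was 1.4 and 0.925 points in place of 2.77 and 1.8, and with only regions of more than 10 cytosines in both tables the first rose to 5.03. Only 5 CD11b+ regions and 1 CD4+ region had a partner at a WT mean of 50% or more under that overlap.

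Regions unmethylated in myeloid cells and methylated in T cells existed but were few. The 5 with the highest CD4+ WT mean by a shared base were near Opn4, Sh3d19, B3gnt7, Hivep2 and Cyp2s1, at 93.9%, 93.4%, 85.8%, 83.2% and 82.6%, and all but B3gnt7 shared 1 or 2 bp. At B3gnt7, a glycosyltransferase gene (chr1:86303028-86303220), 59.1% of the region was shared, and the methylation was 2.92% in WT and 2.69% in R878H CD11b+ cells against 85.8% and 66.5% in CD4+ cells. With 50% shared, the highest lay near Ankrd50 (58.3%), Lmntd1 (57%), Clic6 (54.4%), Slc44a1 (53.3%) and Sptbn1 (52.8%). The largest losses in the partner under that overlap were near Themis2 (33.4% to 8.3% in CD4+ cells), Cyba, a subunit of the phagocyte NADPH oxidase (43.7% to 19.1%), Shc4, Zfp831 and Bcl6, a transcriptional repressor of germinal centre cells (35.2% to 15.7%), with the CD11b+ region at 2.77%, 7.33%, 6.53%, 2.33% and 2.73% in WT. By a shared base the largest were near Pcdh1, Il12a, Pitpnm1, Ing2 and Tm4sf5, with the Il12a segment, 15031 bp from the start of that cytokine gene, falling from 47.2% to 13.7% over 84 shared bp.

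In the other direction, 188 of 2286 CD11b+ regions over T cell regions (8.22%) gained 3 points or more and 931 (40.7%) lost 3 points or more, with a median of WT minus R878H of 1.8 points. By a shared base the highest CD11b+ WT means, near Stmn1, Ets1, Gys1, Gpatch2l and Lipc (85.2% to 92.4%), were all touches of 1 or 2 bp. The largest changes were near Coro1a, Srgap2, Rnf7, Hlx and Snx18. At Coro1a, which encodes a leukocyte actin regulator, the CD4+ region chr7:126701241-126701325 stood at 1.93% and 0.7%, and the CD11b+ region that shared 61 bp rose from 0.438% to 43.4%. Hlx, a homeobox gene of blood cells, was at 0.325% and 0.925% in CD4+ cells, and its CD11b+ partner rose from 0.575% to 38.9%. Srgap2 and Snx18 partners rose from 1.35% to 44.3% and from 0.25% to 37.1%. Rnf7, for a subunit of ubiquitin ligases, was the exception, with a CD11b+ partner that fell from 52% to 11.8% beside a CD4+ region at 6.9% and 6.79%. With 50% shared, Rinl, Kansl1 and Ppard joined Srgap2 and Rnf7, with partners at 2.67% and 35.6%, 2.18% and 34.8%, and 10.6% and 41.7%.

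These gains were counted over the whole overlap. Of the 2286 CD11b+ regions that overlapped stably unmethylated CD4+ regions, 162 (7.09%) gained 3 points or more from a WT mean below 10%. Of the 2307 CD4+ regions that overlapped the CD11b+ set, 58 (2.51%) did. Among these overlapping regions, 1456 and 1408 had a WT mean below 10%. Over all listed regions with a WT mean below 10%, 2355 of 8404 (28%) gained in CD11b+ cells. In CD4+ cells 662 of 7847 (8.44%) did, so the cell types differed in the same direction there. The 157 CD4+ regions that those 162 gains overlapped held a median of 5.81 CG per 100 bp, and 70.7% lay in promoters. They stood at 2.27% in WT and 1.79% in R878H CD4+ cells, while their CD11b+ partners went from 1.82% to 11.8%. The corresponding values for the regions that met the rule in both tables were 4.23 CG per 100 bp and 49.8%. The difference between the cell types itself could not be tested without values per mouse.

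The sequences of the regions with the highest WT mean in the other cell type, among those of at most 300 bp that overlap no exon of any annotated gene and have at least 50% of both regions shared, are shown because their letters are shared by both cell types. Slc44a1 (chr4:53596899-53597109, 794 bp from a start of this choline transporter gene) was at 7.75% and 7.55% in CD11b+ cells, where the T cells had 53.3% and 37%. Pip4k2c (intron, chr10:127231099-127231260) was at 5.78% and 5.12% in CD4+ cells, where the myeloid cells had 47.2% and 33.8%. The Rnf7 region, with a higher mean in the other table, overlaps an exon of the full annotation and is not printed. The 2 printed hold 5 and 6 CG dinucleotides.
Slc44a1: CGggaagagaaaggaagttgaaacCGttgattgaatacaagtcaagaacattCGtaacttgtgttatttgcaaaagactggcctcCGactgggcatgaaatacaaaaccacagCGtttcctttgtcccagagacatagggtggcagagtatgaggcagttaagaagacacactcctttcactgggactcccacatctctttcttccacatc
Pip4k2c: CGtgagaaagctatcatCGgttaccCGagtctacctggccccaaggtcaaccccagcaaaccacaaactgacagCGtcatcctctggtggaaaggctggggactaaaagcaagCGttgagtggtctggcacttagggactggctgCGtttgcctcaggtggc

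DNA beside the stably unmethylated regions lost more methylation than DNA far from them. Listed regions outside the set were sorted by their distance to its nearest member. Within 250 bp, 3033 CD11b+ regions had a median of 45.5% in WT and 30.6% in R878H cells and lost 10.9 points (quartiles 6.12 and 16.7), and 3520 CD4+ regions went from 50.3% to 33% and lost 11.6 points (7.44 and 17). At 250 to 500 bp the losses were 11.4 and 12.2 points, at 1 to 2 kb 8.91 and 9.02, and beyond 50 kb 6.4 and 6.7. Losses of 20 points or more were found in 19.4% and 20.7% of regions at 250 to 500 bp and in 6.24% and 5.3% beyond 50 kb.

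The flanks started from intermediate methylation. Among regions with a WT mean of 80% or more the order was the same, from 10.1 and 10.9 points within 250 bp to 5.6 and 6.06 points beyond 50 kb. At the same site, 3214 CD11b+ regions (74.2%) and 3851 CD4+ regions (75.5%) had a listed neighbour within 500 bp, and the neighbour lost more than the region itself at 2876 (89.5%) and 3747 (97.3%) of them, by medians of 11.1 and 12.2 points against 0.55 in both sets. The region itself was chosen to change by less than 3 points and segment borders were set where methylation or its difference changes, so the contrast at a border is partly built in.

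**Figure D5:**
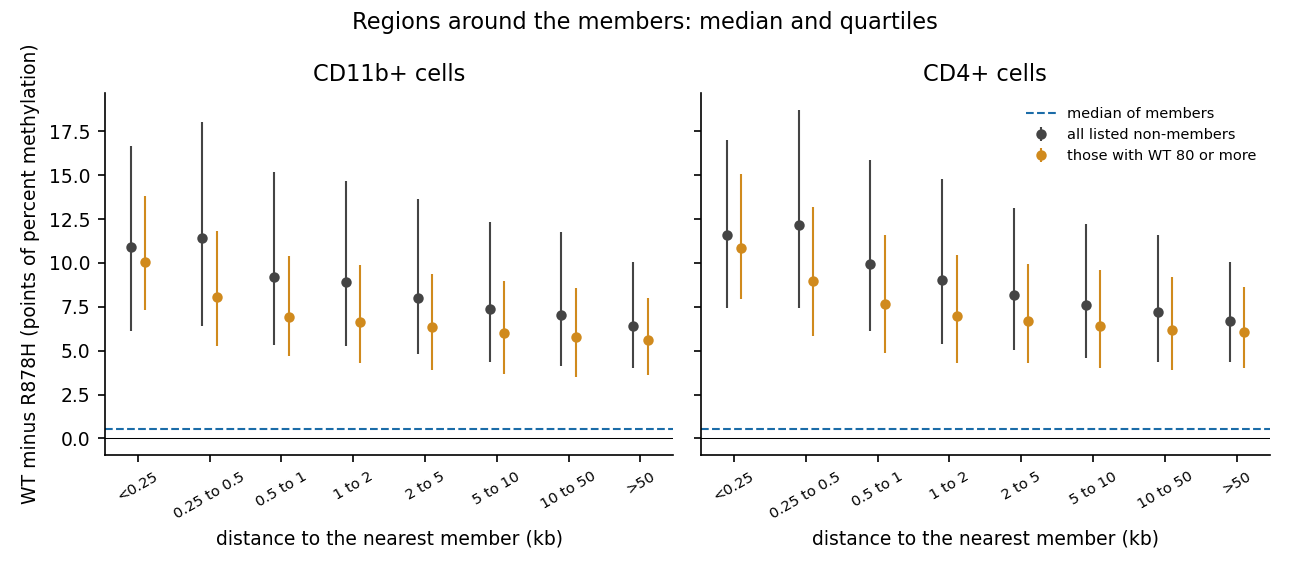
WT minus R878H (y axis, points of percent methylation; median with quartile bars) of listed autosomal regions outside the set, by distance to the nearest stably unmethylated region (x axis, kb), for all of them (grey) and for those with a WT mean of 80% or more (amber); the dashed line is the median of the set (0.525). Losses are largest within 0.5 kb and smallest beyond 50 kb in both cell types.

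Named examples show how steep these borders were. In CD11b+ cells the stably unmethylated region at the start of Gas2l1, a cytoskeletal linker gene, stood at 4.75% and 2.1%, and a neighbour within 500 bp fell from 71.5% to 23.5%. Beside Tigd5 (2.88% and 4.5%) a neighbour fell from 69.8% to 21.4%, beside Rai14 from 66.2% to 18.4%, beside Mmp14, a membrane matrix protease, from 74.3% to 26.7%, and beside the hyaluronidase gene Hyal2 from 76.2% to 29.2%. In CD4+ cells Socs3, a feedback inhibitor of cytokine signalling, had a region at 2.46% and 0.654% beside one that fell from 74% to 19.7%. Neighbours near Zfp395, Kcnrg, Trim47 and Ext1 fell from between 75.3% and 77.9% to between 23.9% and 28.3%. These 10 were picked, after their values were seen, as the largest falls from a WT mean of 20% or more.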

How the data were processed

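Whole-genome bisulfite sequencing was performed on splenic CD11b+ and CD4+ cells. Per the study's methods, the authors aligned reads to mm10 with BISCUIT and segmented the genome with metilene. The deposited tables hold, per region, the number of CpG cytosines and the mean methylation of each genotype in percent, as computed by the authors over 4 mice. Strands were not merged, so a CG dinucleotide can give 2 cytosines. Columns with the authors' difference and p-values were not used, 0 columns held values of single mice, and the tables hold no read depth; the study's methods state 1 overall coverage only.

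Starts were shifted to 1-based positions. CG dinucleotides, GC content and motifs were counted in the GRCm38.p6 sequence with Python 3.11.15, pandas 2.3.3, numpy 2.4.6 and pysam 0.24.0, and positions came from GENCODE M21. Differences were rounded to 4 decimals before the 3-point limit was applied. Intervals were computed with scipy 1.17.1. Overlap and selection were tested on simulated data. No test was made, since regions are not replicates.

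Members, gene lists and named regions were chosen with earlier results of these data known. Named by rule were, per cell type, the 5 regions with the most cytosines, the 5 densest, the 5 with the highest WT mean and the 5 with the largest change in the other table, the 3 on each side of each limit, up to 4 genes per list with the most cytosines in promoter members, the 3 genes with most members and the printed sequences. Genes of a list whose unmethylated regions changed were named for lists with few and counted for the others, and some are not reported here. Sequences of chromosome 18 were left out. Of the sequences chosen, those near Sh3d19, Stmn1, Zfp365, Igf2bp3 and Zmiz2 are not printed: the first pair share 1 bp with the other table's region, Zfp365 holds 25 bp, and 1 typical region per cell type was taken to be enough.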

Additional observations from a re-analysis of the deposited data

How the results depend on the processing

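No paired analysis was possible because the tables hold no value per mouse, and for the same reason no mouse could be left out. Of 92 values recomputed under 11 alternatives, 46 stayed within the 95% interval of the reported value (counts within 1.5 times), 46 moved outside it and none changed sign. In what follows the CD11b+ value precedes the CD4+ value, and for the other table's regions the CD4+ regions over CD11b+ members precede the CD11b+ regions over CD4+ members. Where only 1 of the pair moved, the cell type is named. Including sex chromosomes, contigs and chromosome M moved nothing, and neither did weighting by cytosines.

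With a WT mean below 5%, the density became 4.54 and 4.57 CG per 100 bp, the promoter share 58.1% and 56.8%, the share lower in R878H 62% and 59.7%, and the median of WT minus R878H in the other table's regions 2.12 and 1.3 points. With a change below 2 points, these became 56.4% and 53.9% in promoters, 62.2% and 61.1% lower, and 2.27 and 1.46 points in the other table, with 39.7% and 40.9% of members meeting the rule there. With a change below 5 points, the values were 52.7% and 50.6%, 67.2% and 68%, 3.55 and 2.35 points, and 47.3% and 49.8%, and the CD4+ density 4.13. With more than 10 cytosines, 1281 and 1464 regions remained, at 4.63 and 4.56 CG per 100 bp, with 57.8% and 54.7% in promoters, 5.03 and 2.25 points and 35.2% and 39.5% for the other table, and 68.4% of CD11b+ regions lower. A reciprocal overlap of 50% gave 65.3% and 64.8%, and 1.4 and 0.925 points. A promoter of 2 kb gave 60.8% and 59%, and starts of every annotated gene 59.4% and 57.4%. Taking the number of cytosines used, halved, gave 2.23 and 2.45 per 100 bp, since only a part of the reference cytosines entered the means.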
